A study of Canis lupus familiaris with 12 samples.

Results

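This account covers 4 genes of protein entry into the endoplasmic reticulum (ER) and of folding inside it, HSP90B1, SEC11C, SEC61B and SSR1, in MDCK (Madin-Darby canine kidney) cells, a dog line with features of renal tubule epithelium. They were taken as every gene probe on a one-colour Agilent dog array whose identifier is a RefSeq transcript of one of the 4 genes, which gave 6 of the 43603 probes, and 4 of the 944 genes that could be named. Confluent cells, from the American Type Culture Collection, spent a day without serum at pH 7.4 and were then divided. The acid group had 24 h at pH 7.0, reached with less bicarbonate, and the control group had 24 h at pH 7.4. By its title the study looked at gene expression under acid stress, with proinflammatory cytokines in view. There were 3 biological replicates, extracted on separate dates, each with 1 pH 7.0 RNA and 1 pH 7.4 RNA. Each RNA was hybridised to 2 arrays, which made 6 arrays per group. The cells of both groups are 1 line grown in culture, so the replicates measure the spread between extractions of that line.

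A protein bound for secretion or for a membrane is made on ribosomes that dock on the ER and is threaded through the SEC61 channel. SEC61B is the beta subunit of that channel. SSR1 is the alpha subunit of the translocon-associated protein complex, which sits beside the channel and helps some signal sequences to enter. SEC11C is a catalytic subunit of the signal peptidase, which cuts the signal sequence off on the inner side. HSP90B1, also called GRP94, is the HSP90 chaperone of the ER lumen, which folds a limited set of clients such as Toll-like receptors and integrins and is a classical target of the unfolded protein response. Tubule cells carry many membrane transporters and junction proteins that are made by this route.

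The probe of each gene that was brightest without being saturated on any array gave a lower mean at pH 7.0 than at pH 7.4 for all 4 genes. The log2 change, pH 7.0 minus pH 7.4, was -1.15 for HSP90B1 (2.21-fold lower), -0.45 for SEC11C (1.36-fold lower), -0.34 for SEC61B and -0.31 for SSR1 (1.24-fold lower). HSP90B1 and SEC11C were lower in all 3 biological replicates under each of 4 scalings of the arrays. SEC61B and SSR1 had a change near 0 in biological replicate 2 with the 75th percentile, and one of -0.22 and -0.30 without scaling. None of the 4 passed an adjusted p of 0.05, with limma adjusted p of 0.205, 0.448, 0.615 and 0.653 in that order. The same test called 0% of the 27136 tested probes higher and 0% lower, so no probe of the array passed, while 3324 had an unadjusted p under 0.05. In bulk RNA, a smaller amount of a transcript per cell and fewer cells that make it cannot be told apart.

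**Figure D1:**
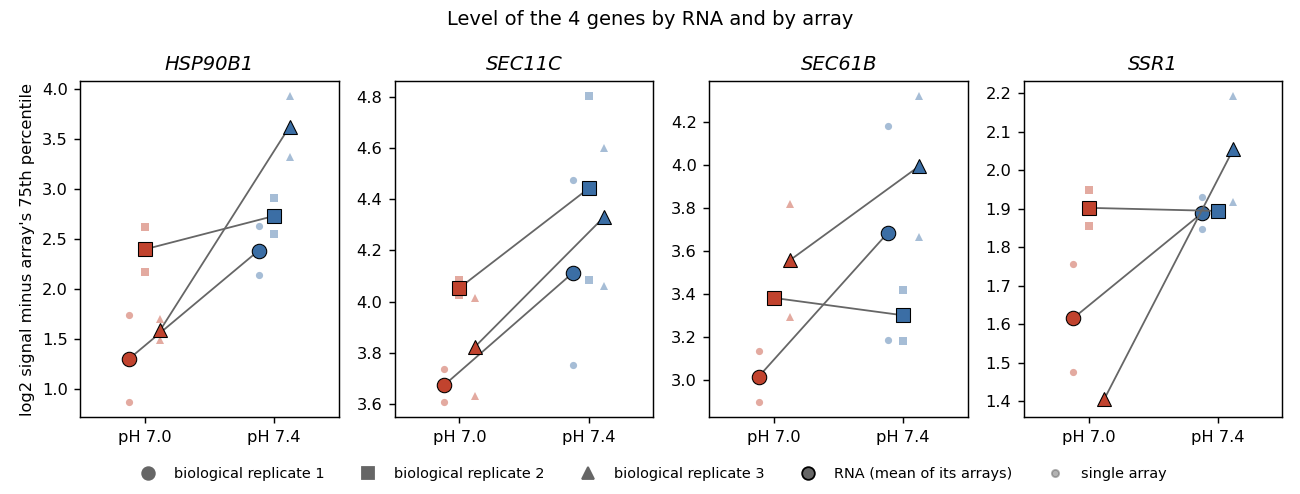
Level of HSP90B1, SEC11C, SEC61B and SSR1, as log2 signal minus the array's 75th percentile (vertical axis, its own range in each panel), at pH 7.0 (left, red) and pH 7.4 (right, blue). Large symbols are the 6 RNAs, small symbols the single arrays, shapes the 3 biological replicates, and lines join the RNAs of a replicate. The HSP90B1 and SEC11C lines run lower at pH 7.0 in all 3 replicates, and those of SEC61B and SSR1 in 2 of 3.

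SEC61B was read by 1 probe, A_11_P0000020037. Its level, as log2 signal minus the 75th percentile of the array, was 3.02, 3.38 and 3.56 in biological replicates 1 to 3 at pH 7.0, and 3.69, 3.30 and 4.00 at pH 7.4. The pH 7.0 RNA was lower in replicates 1 and 3 and slightly higher in replicate 2, and the groups overlapped. The changes were -0.67, 0.081 and -0.44, with a mean of -0.34 ± 0.24 (SE of the limma fit, n = 3 pairs, 95% interval -0.88 to 0.19). The 2 arrays of an RNA differed by up to 1.00 for this probe, with a median gap of 0.38, so the change was of the size of the gap between duplicate arrays. Without biological replicate 1 the change was -0.18, without biological replicate 2 it was -0.55, and without array 1 of pH 7.4 it was -0.18.

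SSR1 was read by 2 unsaturated probes. The brighter, A_11_P056186, stood at 1.62, 1.90 and 1.40 in the pH 7.0 RNAs and at 1.89, 1.89 and 2.05 in the pH 7.4 RNAs of replicates 1 to 3. Its pH 7.0 values were the lower ones in replicates 1 and 3 and level with pH 7.4 in replicate 2, where the change was 0.0082. The mean change was -0.31 ± 0.23 (SE, n = 3 pairs, 95% interval -0.83 to 0.22). The 2 arrays of an RNA differed little for this probe, with a median gap of 0.088 and a largest gap of 0.28.

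The dimmer SSR1 probe, A_11_P0000019984, gave 0.26, 0.71 and 0.30 at pH 7.0 and 0.56, 0.62 and 0.81 at pH 7.4. It followed the brighter probe: replicates 1 and 3 were lower at pH 7.0 and replicate 2 was not. Its mean change was -0.24 ± 0.23 (SE, n = 3 pairs, limma adjusted p = 0.731). Over the 6 RNAs the 2 probes had a Pearson r of 0.92, as a description of 6 points that share slides and a pH difference. Without biological replicate 3 the brighter probe had a change of -0.13, and without biological replicate 2 one of -0.46.

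SEC11C, on probe A_11_P0000020024, had the least spread of the 4 genes over the 3 pairs when arrays were scaled by the 75th percentile, the median or quantiles, whereas without scaling SSR1 had less (SD 0.114, against 0.157 for SEC11C). It stood at 3.67, 4.05 and 3.82 in the pH 7.0 RNAs and at 4.11, 4.44 and 4.33 in the pH 7.4 RNAs of replicates 1 to 3. All 3 pH 7.0 RNAs lay below all 3 pH 7.4 RNAs, as 3.61% of the tested probes did, and none of the other 3 genes was among them. The changes were -0.44, -0.39 and -0.51, with a standard deviation of 0.060 over the 3 pairs (0.096 with median scaling and 0.181 with quantiles) and a mean of -0.45 ± 0.22 (SE of the limma fit, 95% interval -0.93 to 0.042, unadjusted p = 0.0690). The SE is larger than those 3 changes alone would give because limma draws each probe's variance towards that of all probes. The 2 arrays of an RNA differed by up to 0.72, with a median gap of 0.46, and the single arrays of the groups overlapped.

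Before scaling, the SEC11C signals did not overlap between groups. They ran between 6676 and 10022 intensity units on the 6 pH 7.0 arrays, with a median of 9010, and between 11509 and 16329 on the 6 pH 7.4 arrays, with a median of 12583. Of the tested probes, 0.291% had unscaled signals that were lower on every pH 7.0 array than on every pH 7.4 array. Without scaling the duplicate arrays differed in SEC11C by a median of 0.20, less than the 0.46 after the 75th percentile was subtracted, while over all tested probes the median gap was 0.41 unscaled and 0.28 scaled. With quantile normalization the gap was 0.18 and the change -0.51 (limma adjusted p = 0.403). The change without scaling was -0.55 (limma adjusted p = 0.489), beside a median over all tested probes of -0.089, against 0.012 with the 75th percentile.

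HSP90B1 had the largest difference of the 4 genes, on its unsaturated probe A_11_P186303. The level was 1.31, 2.40 and 1.59 in the pH 7.0 RNAs and 2.38, 2.73 and 3.62 in the pH 7.4 RNAs of replicates 1 to 3. Each pH 7.0 RNA was lower than its partner, and the groups overlapped only in that replicate 2 at pH 7.0 lay just above replicate 1 at pH 7.4. The changes were -1.08, -0.33 and -2.03, and their mean was -1.15 ± 0.31 (SE of the limma fit, n = 3 pairs, 95% interval -1.84 to -0.45). The unadjusted p was 0.00449, which ranked 595 of 27136 tested probes, and the limma adjusted p was 0.205. Without biological replicate 3 the change was -0.71.

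Leaving out biological replicate 2, where the HSP90B1 change was smallest, gave -1.55 ± 0.36 and a limma adjusted p of 0.00269. That fit, on 2 pairs, gave every probe the same variance and called 1.65% of the tested probes lower. The 4 arrays of replicate 2 also had the fewest probes well above background, 49.4% to 54.1%, against 62.2% to 70.4% on the other 8 arrays. The part of this in the small change was not tested. The 2 arrays of an RNA differed in HSP90B1 by 0.21 to 0.87, with a median of 0.47, less than the changes of replicates 1 and 3 and more than that of replicate 2. Each of those changes averages 2 arrays on either side, whereas the gap is between single arrays.

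The other HSP90B1 probe, A_11_P0000020038, had 3 saturated arrays of 6 at pH 7.0 and 5 of 6 at pH 7.4. It is therefore given apart and without a mean fold. Its mean level over the 12 arrays was 6.46, against 2.34 for the unsaturated probe. Over the 6 RNAs the 2 HSP90B1 probes had a Pearson r of 0.61, with the saturated arrays included. In replicate 3 neither pH 7.0 array was saturated, with processed signals of 35251 and 31053, whereas both pH 7.4 arrays were, at 63897 and 64077. Since only the brighter side was capped there, HSP90B1 on this probe was at least 1.93-fold lower at pH 7.0 in replicate 3 by these signals, and at least 2.11-fold lower after scaling by the 75th percentile. In replicate 1 all 4 arrays were saturated, at 59259 and 61164 for pH 7.0 and 59336 and 58523 for pH 7.4. In replicate 2 each RNA had 1 saturated array, with processed signals of 64167 and 56586 at pH 7.0 and of 69001 and 63216 at pH 7.4. The scaled change there was 0.17, which does not measure a rise, as both sides were partly capped.

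**Figure D2:**
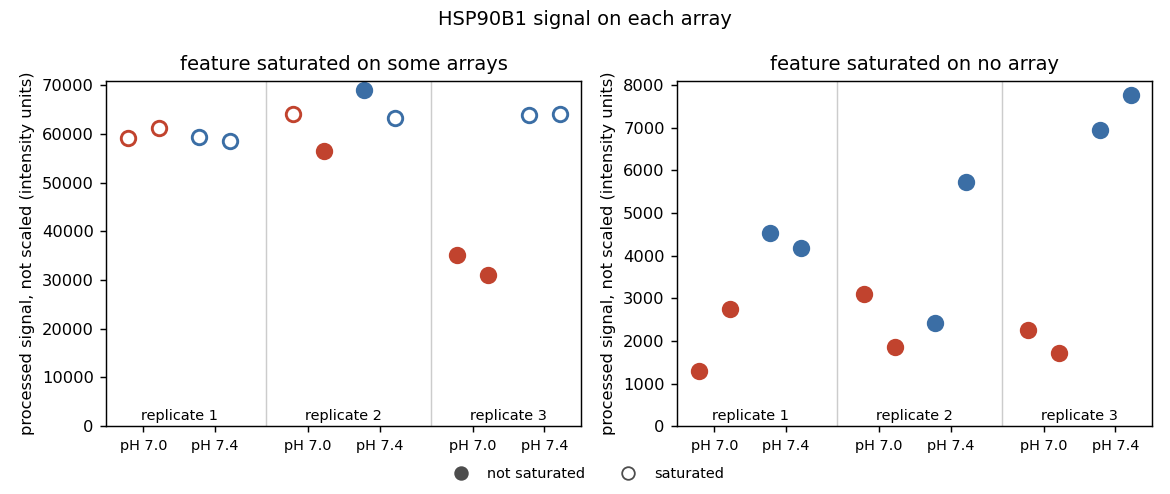
Processed signal of the HSP90B1 probe that reached saturation (left) and of the one that did not (right) on each of the 12 arrays, in intensity units on a linear axis from 0, with red for pH 7.0, blue for pH 7.4 and open symbols for saturated arrays. In replicate 3 the left panel shows pH 7.0 at 35251 and 31053 below saturated pH 7.4 arrays, and in the right panel pH 7.0 lies below pH 7.4 in replicates 1 and 3.

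Counts of the 4 genes were set beside all tested probes. All 4 of 4 had an estimate below 0, as 48.7% of tested probes did, and 2 of 4 were lower in all 3 biological replicates, as 15.7% were. That count moved with the scaling. It was 3 of 4 with the array median, beside 15% of tested probes, and 4 of 4 both with quantiles, beside 16.4%, and without scaling, beside 21.6%. HSP90B1 alone had an unadjusted p under 0.05, in the lower direction, where 5.77% of tested probes lay. Among the 577 genes with a name and an unsaturated tested probe, 238 (41.25%) had an estimate below 0, and the median change was 0.067. The 4 genes were chosen with earlier results of these data known, so no test is given for them as a group. An exact sign test over 3 pairs could not go below p = 0.25.

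Over the 6 RNAs the levels of HSP90B1 and SEC11C had a Pearson r of 0.89, those of HSP90B1 and SSR1 one of 0.87, and those of SEC11C and SSR1 one of 0.79. SEC61B followed the others less, with r of 0.73 to HSP90B1, 0.49 to SEC11C and 0.44 to SSR1. These are descriptions of 6 points that share the pH contrast and 3 slides. Of 573 other named genes, the patterns most like HSP90B1 were those of IL5, an eosinophil cytokine (r = 0.92), IL13RA2, a decoy receptor for interleukin 13 (0.91), and EPB41, a protein of the membrane skeleton (0.89). SSR1 was nearest to IL13RA2 (0.97), IL5 (0.93) and LOC403555 (0.91). SEC11C was nearest to NFKBIL1 (0.97), IL5 (0.93) and the prostaglandin E2 receptor PTGER2 (0.92), and SEC61B to the dopamine receptor DRD2 (0.96), the kallikrein KLK1 (0.95) and the transcription factor SNAI2 (0.95). All of these genes had estimates below 0 at pH 7.0, from -0.96 for IL5 to -0.41 for SNAI2. They were picked for likeness, over the same 6 RNAs, to genes lower at pH 7.0, so that sign largely follows from the choice.

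The rest of the entry and folding route was measured through 13 other named genes of a list of 51, of which 12 had an unsaturated tested probe. At an adjusted p of 0.05, 0 of 12 passed limma's test in either direction, and 0 of 12 had an unadjusted p under 0.05. By estimate 9 of 12 were below 0 and 3 above, with a median of -0.15. Below 0 lay 48.7% of all tested probes and 41.25% of the 577 named genes. In all 3 replicates 4 of 12 were below 0, beside 15.7% of tested probes and 13% of named genes. When local background was removed by the normexp method, the count below 0 was 3 of 12. It was 9 of 12 once the spots far below their local background, 8 and 3 on arrays 3 and 4 of pH 7.4, had been repaired.

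Among partners of the channel, TRAM1, a membrane protein that takes part in the entry of some chains, stood at -0.41 ± 0.24 on its brighter probe and at -0.40 on its other. The pore subunit SEC61A1 was at -0.24 ± 0.22 on its brightest unsaturated probe, and at -0.32 on a dimmer one. The remaining SEC61A1 probe was saturated on 5 pH 7.0 arrays and all 6 pH 7.4 arrays. SEC61G, the gamma subunit, was at -0.11, and the single probe of SSR2, the beta subunit of the complex that holds SSR1, had 5 saturated arrays of 6 in either group. The channel's other genes thus gave estimates between -0.41 and -0.11 with none past the test.

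In the signal recognition particle, which brings ribosomes to the ER, SRP72 stood at -0.19 ± 0.28, SRP54, which binds the signal sequence, at -0.16 ± 0.22, SRP14 at -0.14 and SRP68 at 0.060. The changes of SRP14 ran from -0.89 in replicate 1 to 0.62 in replicate 3, and its other probe stood at 0.022. In the oligosaccharyltransferase, which adds sugar chains to proteins as they enter, OSTC stood at -0.41 ± 0.23 and was below 0 in all 3 replicates, and DDOST stood at -0.068 ± 0.27. CANX, the lectin chaperone calnexin, was the only other ER chaperone named, with 0.087 ± 0.27 on its brighter probe and -0.14 on its dimmer one. No named gene of the 10 unfolded protein response regulators listed, or of the 9 genes of ER-associated degradation, was on the array under a RefSeq name, so those branches were not analysed here.

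**Figure D3:**
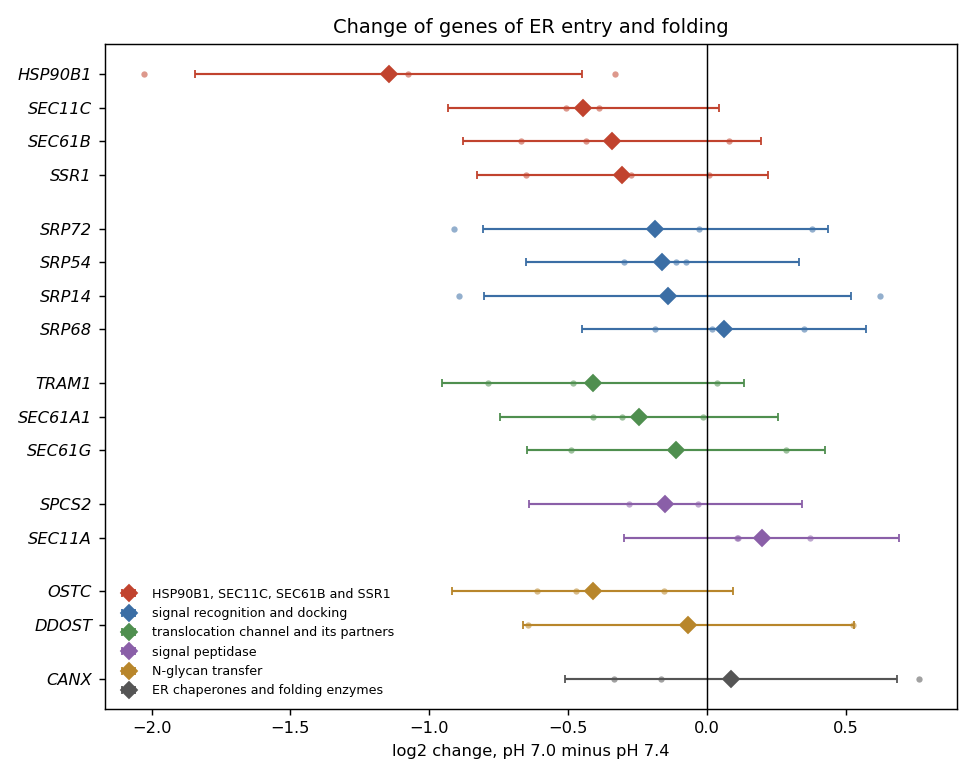
Change on the log2 scale, pH 7.0 minus pH 7.4 (horizontal axis), of HSP90B1, SEC11C, SEC61B and SSR1 and of 12 other genes of ER entry, glycosylation and folding, grouped by role. Diamonds are limma estimates with 95% intervals and small points the 3 biological replicates. HSP90B1 alone has an interval below 0, and the other 12 genes lie between -0.41 and 0.20.

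Signal peptidase gave the one pair of sister subunits that could be compared. SEC11A, the other catalytic subunit, had estimates of 0.11, 0.37 and 0.11 in the 3 replicates and a mean of 0.20 ± 0.22, whereas SEC11C was below 0 in all 3. The accessory subunit SPCS2 stood at -0.15 ± 0.22. Within each RNA, where array scaling cancels, the SEC11C change minus the SEC11A change was -0.55, -0.76 and -0.62, a mean of -0.64 ± 0.10 (SD, n = 3 pairs). The exact two-sided sign-flip permutation test gave p = 0.25, the smallest 3 pairs allow. This pair was picked after its values were seen, and whether the probes tell the related transcripts apart was not tested.

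Other heat shock and client genes were few. The cytosolic HSPA4, a partner of HSP70 proteins, stood at -0.076 and HSPB1, a small heat shock protein, at 0.13. Of 6 named genes among known HSP90B1 clients in mammals, 4 were bright enough to test, and 0 of 4 passed over all probes. At an unadjusted limma p under 0.05, 1 of 4 was higher, TLR1, and 1 lower, INS. Among the 577 named genes, 63 were higher and 22 lower at that level. TLR2 and TLR4 were not above background on any array. INS, insulin, was at -0.67 ± 0.23 (limma adjusted p = 0.277) on its brighter probe and at -0.13 on its dimmer one. TLR1 was at 0.57 ± 0.22 (limma adjusted p = 0.342), TLR9 at -0.35 and TLR7 at -0.033. These receptors lay near background: TLR1 passed it on 5 pH 7.0 arrays and 3 pH 7.4 arrays, TLR9 on 4 and 5, and TLR7 on 4 and 3.

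Cell markers under RefSeq names were too few to type the cells in full. Of 10 kidney epithelium markers, 3 were named: OCLN and CGN, of tight junctions, were well above background on all 12 arrays. CLDN2 passed that level on 5 pH 7.0 arrays and 3 pH 7.4 arrays. Their estimates were above 0, at 0.26, 0.24 and 1.15 by the brightest probe of each. The dimmer probe of CGN stood at 0.75 (limma adjusted p = 0.263) and that of CLDN2 at 0.94 (limma adjusted p = 0.165). Of 7 fibroblast markers, 4 were named. COL1A2 and COL1A1 were well above background on all 12 arrays by their brightest probe, at -0.21 and 0.43. Their other probes were dimmer, and passed background on 0 to 5 arrays per group for COL1A2 and on 0 to 4 for COL1A1. PDGFRB passed background on 5 arrays per group, at -0.014. The 2 probes of DCN were above background on at most 1 array of 12. Of 5 endothelial markers, VWF and KDR were named. VWF was well above background on all 12 arrays, with a mean level of 1.06 at pH 7.0 and 0.88 at pH 7.4, and KDR passed background on 1 pH 7.0 array and 2 pH 7.4 arrays. Of 7 leukocyte markers 0 were named. The part of other cells in the values of the 4 genes was not tested.

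**Figure D4:**
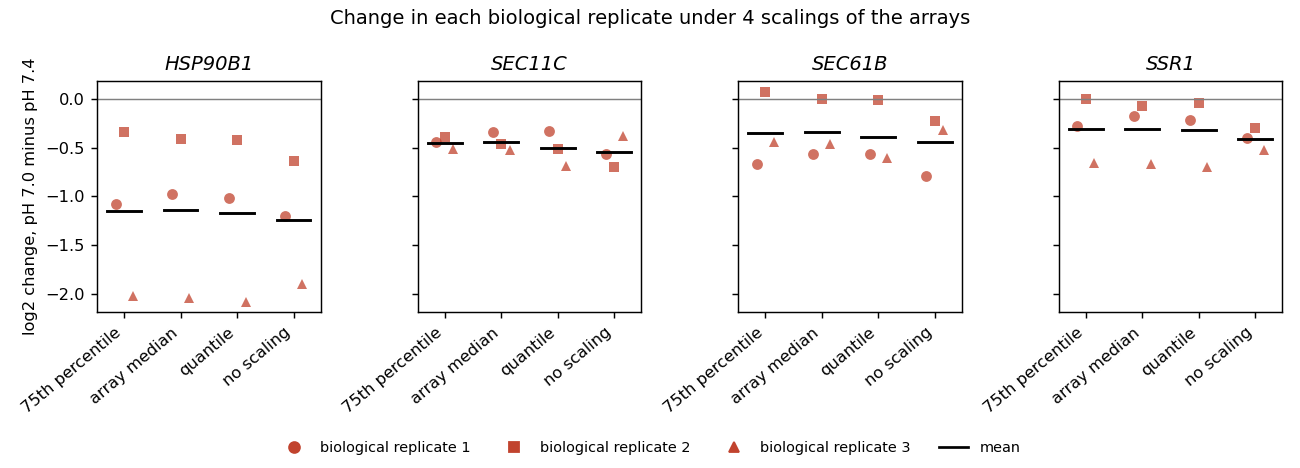
Change of HSP90B1, SEC11C, SEC61B and SSR1 in each biological replicate (symbols) and on average (bars), on the log2 scale, pH 7.0 minus pH 7.4, with the arrays scaled by the 75th percentile, by the median, by quantiles or not at all. The 4 means stay below 0 under each scaling, and replicate 2 moves between 0.081 and -0.22 for SEC61B and between 0.0082 and -0.30 for SSR1.

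HSP90B1 lay farthest below 0, then SEC11C, SEC61B and SSR1, under the 75th percentile, the median, quantile normalization and no scaling. The 75th percentile, the median and no scaling shift all probes of an array by the same amount. Only quantile normalization could therefore have changed that order. Neighbours in that order from SEC11C to SSR1 lay within 1 SE of each other. The HSP90B1 change ran between -1.25 and -1.14 under the 4 scalings. The biological replicates kept their ranks for HSP90B1 in each of them, with replicate 3 farthest from 0 and replicate 2 nearest. For SEC11C the ranks changed with the scaling: replicate 3 had -0.51 with the 75th percentile and -0.38 without scaling, and replicate 2 had -0.39 and -0.69. Normexp on the local backgrounds gave -0.26 for SEC11C, -0.089 for SEC61B and -0.11 for SSR1, and -0.48, -0.29 and -0.27 after the repair.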

How the data were processed

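Cy3-labelled RNA of MDCK cells was hybridised to one-colour arrays and the scans were read with Agilent Feature Extraction 10.7.3.1, per the submitters' processing notes. Each deposited scanner file gives, per the file headers, intensity per spot: processed, raw median and local background. The deposited table of log2 values, whose scale and centring the authors do not state, matched the processed signal scaled by the 75th percentile and centred on each probe's median, with slopes of 1.00. Its column medians ran from -0.226 to 0.225. It has no direction of a ratio.

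From the scanner files, log2 of the processed signal was taken, 128 outlier spots were dropped, saturated ones stayed in, the spots of a probe were averaged and the array's 75th percentile over probes was subtracted. The percentile lay between 410.2 and 944. Arrays 1 and 2, 3 and 4, and 5 and 6 of a group, by the numbers in the titles, were taken as biological replicates 1 to 3, and the 2 arrays of an RNA were averaged. Each biological replicate had its own slide and scan day, 3 slides in all, which held both groups. The pairing follows the study's design. RNAs of a pair deviated together from their group means, with r of 0.39, 0.64 and 0.81. The highest r to an RNA of another pair was 0.255, 0.255 and -0.237 for replicates 1 to 3. Deviations of 3 RNAs from their mean sum to 0, so these values are not independent, and a pair also shared its slide.

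The 27136 probes well above background on at least 6 of 12 arrays were fitted with limma 3.58.1 in R 4.3.3, with the biological replicate as a block. Two-sided p-values were adjusted by Benjamini-Hochberg over these probes, with a threshold of 0.05. The number of arrays limits the precision. Names came from RefSeq accessions looked up in the RefSeq gene table of UU_Cfam_GSD_1.0, a dog assembly. They covered 1484 probes. The build of the array is not given in the sources used here, so no coordinates are printed, and no sequences were used and the planned promoter motif search was not run. The 4 genes and the lists were chosen with earlier results of these data known. All probes of the 4 genes were named. Of other genes, the 3 most correlated with each were named, and the 2 of lowest p in each list, with the rest of the lists added after their values were seen. Alternatives covered the block, duplicate arrays, background correction, scaling, filters, prior, value table, probe choice and left-out replicates and arrays. Figures were drawn with matplotlib 3.10.9.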

Additional observations from a re-analysis of the deposited data

Results flagged for a closer look

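On the brighter SSR1 probe, array 6 of pH 7.4 stood at 2.19, apart from the other 5 pH 7.4 arrays, the nearest of which was at 1.93. It was the only one of 12 sets of 6 arrays (6 probes in 2 groups) with an array that far from the others, and chance alone sets apart about 1 in 20. Without that array the SSR1 change was -0.26.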

How the results depend on the processing

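All 4 genes kept an estimate below 0 under all 28 alternatives, and the call changed in 1 of them, HSP90B1 without biological replicate 2 (-1.55). Not all of the 28 could move an estimate. Dropping the block, the RNA as a random block, the filters and a prior with a mean-variance trend left every estimate as it was. Averaging a gene's unsaturated probes could move only SSR1, and the deposited table held nearly the same scaled signal. Without 1 biological replicate or 1 array, HSP90B1 ran from -1.55 to -0.71, SEC11C from -0.57 to -0.33, SEC61B from -0.55 to -0.18 and SSR1 from -0.46 to -0.13. Limma adjusted p over the 28 alternatives ran from 0.00269 to 0.99994 for HSP90B1, from 0.280 for SEC11C, 0.511 for SEC61B and 0.365 for SSR1 to the same highest value. Without the pairing (no replicate block) the unadjusted limma p was 0.0283 for HSP90B1 and 0.147 for SEC11C, and 0 probes were called. Normexp on local backgrounds as given moved SEC11C to -0.26, SEC61B to -0.089 and SSR1 to -0.11. After 8 and 3 spots of arrays 3 and 4 of pH 7.4 had their background repaired, which was chosen after seeing the data, they were at -0.48, -0.29 and -0.27.

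The count of probes called was 0 higher and 0 lower as reported, with 3324 at an unadjusted p under 0.05 and a smallest adjusted p of 0.0502. It was 396 higher and 294 lower with the 12 arrays and the RNA as a random block, 90 and 44 among probes above background on all 12 arrays, 85 and 50 with a mean-variance trend, 48 and 23 at an adjusted p under 0.10, 17 and 7 with median scaling, 10 and 4 with normexp as given, and 9 and 6 without scaling. It was 14 and 6 with the 75th percentile taken over spots, and 0 and 0 with normexp after the repair of local backgrounds. The settings without scaling, over spots and after the repair were added after seeing the data. Without 1 replicate or array it ran from 0 to 203 higher and from 0 to 447 lower, with 203 and 74 when biological replicate 1 was left out, 200 and 447 when replicate 2 was, 10 and 5 without array 6 of pH 7.0, and 4 and 0 without array 1 of pH 7.4. Of the 12 other genes of ER entry and folding, 3 were below 0 with normexp as given and 7 to 11 under the other settings run. The 11 came without scaling, where the median change over all tested probes was -0.089. The cause of these shifts was not tested. Saturation limits the second HSP90B1 probe and the probes of SSR2 and SEC61A1.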
